A study of Homo sapiens with 6 samples.

Results

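The TRIM genes encode tripartite motif proteins, most of them ubiquitin ligases. All rows of the authors' expression table whose symbol is TRIM followed by a number and at most 1 letter were taken, which gave 72 of 20030 gene rows. The values come from RNA sequencing of T24, an established human bladder cancer cell line, in 6 libraries. An NC group of 3 libraries was compared with 3 libraries labelled sh-circRIMS1, a knockdown of the circular RNA circRIMS1. The labels give no sequence, dose, time or clone for the knockdown and do not spell out NC, and the knockdown columns of the table carry an si prefix. Every library is described as total RNA of T24 cells, so the groups share the cell line and differ only in that label.

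A TRIM protein usually joins a RING domain, which passes ubiquitin from a conjugating enzyme to a substrate, with B-boxes and a coiled coil through which the proteins pair, and a variable C-terminal domain that picks the target. Many members act in antiviral defence: some bind incoming viral capsids or antibody-coated viruses, others tune the sensors and adaptors that lead to interferon production. Interferon in turn raises transcription of a subset through factors that bind the interferon-stimulated response element, whereas other members work in chromatin silencing, on microtubules or in muscle and nerve. A list of 12 interferon-inducible members was drawn up from general knowledge (TRIM5, TRIM6, TRIM14, TRIM21, TRIM22, TRIM25, TRIM26, TRIM31, TRIM34, TRIM38, TRIM56 and TRIM69), and the other 60 members were set beside it. Earlier results of these data were known when the list was chosen. The contrast between the list and the other members is therefore a description and is not independent of the data.

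Promoter windows are shown first because the members that moved most are those known to answer interferon. Windows of 300 bases, of which 250 precede an annotated transcript start, were taken from RefSeq on GRCh38.p14 for the 56 members with an entry. That covered 11 of the 12 interferon-inducible members, the exception being TRIM22. The core of the interferon-stimulated response element, spelled GAAA, any 2 bases and GAAA again, was searched on both strands. A match on the opposite strand reads TTTC, any 2 bases and TTTC. It stood in a window of 6 of the 11 interferon-inducible members and of 4 of the 45 others (TRIM2, TRIM16, TRIM44 and TRIM64C). Over all genes with a window, 4.38% held it, and over all windows 3.57%. The stretches around the matches follow, 5′ to 3′ along the gene's strand, with the matched letters in capitals and 10 bases on either side.
TRIM5 (chr11:5685082-5685111, minus strand): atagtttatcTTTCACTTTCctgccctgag
TRIM34 (chr11:5624901-5624930, plus strand): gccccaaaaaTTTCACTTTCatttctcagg
TRIM14 (chr9:98119229-98119258, minus strand): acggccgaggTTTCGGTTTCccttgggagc
TRIM21 (chr11:4393660-4393695, minus strand): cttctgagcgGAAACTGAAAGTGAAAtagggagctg
TRIM26 (chr6:30213575-30213610, minus strand): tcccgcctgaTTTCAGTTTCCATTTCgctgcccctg
TRIM69 (chr15:44736456-44736485, plus strand): ctaatgagggTTTCTCTTTCtcttaagcaa

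In TRIM21 and TRIM26 the capitals hold 2 overlapping matches. The match lay 27 to 18 bases before the annotated start in TRIM5, 26 to 17 before it in TRIM14 and 90 to 81 before it in TRIM34, while in TRIM21 the matches lay after the start. TRIM5 and TRIM34, neighbours on chromosome 11, shared the same 10 matched letters. Their whole windows are given to show the surroundings of that shared match.
TRIM5 (chr11:5685025-5685324, minus strand): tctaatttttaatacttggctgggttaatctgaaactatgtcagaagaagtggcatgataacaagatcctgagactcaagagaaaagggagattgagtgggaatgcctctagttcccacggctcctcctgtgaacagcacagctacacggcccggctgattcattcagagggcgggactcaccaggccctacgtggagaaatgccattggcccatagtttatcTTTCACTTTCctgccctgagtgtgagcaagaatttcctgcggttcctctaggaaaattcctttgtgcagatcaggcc
TRIM34 (chr11:5624751-5625050, plus strand): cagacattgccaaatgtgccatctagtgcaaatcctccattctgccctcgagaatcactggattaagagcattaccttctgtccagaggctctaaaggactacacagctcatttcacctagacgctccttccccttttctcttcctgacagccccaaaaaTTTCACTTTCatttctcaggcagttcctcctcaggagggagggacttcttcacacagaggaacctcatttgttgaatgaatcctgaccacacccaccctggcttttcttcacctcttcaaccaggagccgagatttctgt

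A second motif, TTCNNNGAA, the gamma-activated sequence bound by STAT dimers, reads the same on both strands. It stood in 0 of the 11 interferon-inducible members and in 12 of the 45 others with a window, against 9.38% of all genes. Among the 12, TRIM49 and TRIM49C matched at the same distances from the start, as did TRIM64 and TRIM64B. The 12 may therefore not be separate cases. A match is a description of these windows, and no match says only that the letters are not in them. The response element core stood in windows of TRIM5, TRIM14, TRIM21 and TRIM34, which rose in the knockdown cells. TRIM38 and TRIM56 also rose and had no such match. TRIM26, which did not pass the test below, and TRIM69, too low to be tested, each had one. Whether the matches bear on the levels was not tested.

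Levels are given as FPKM, fragments scaled to transcript length and to the mapped fragments of the library, as deposited by the authors. On this scale levels can be compared between genes. Of the 72 members 22 were listed at 0 in all 6 libraries, among them TRIM31 of the interferon-inducible list and members such as TRIM43, TRIM48, TRIM49 and TRIM64. A further 13 were above 0 somewhere but had a mean below 1 FPKM, and 37 reached that mean and were tested. TRIM22, TRIM34 and TRIM66 had NC means below 1 FPKM and passed the filter only through the sh-circRIMS1 libraries, so they could hardly pass without differing, and counts over the tested members describe them without supporting a difference. All members with an NC value above 0 were also above 0 in a knockdown library.

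The family's level was carried by a few genes. TRIM28, the corepressor through which KRAB zinc-finger proteins silence chromatin, had the highest mean of all members, and made up 28.9% to 30.0% of the summed FPKM of the 72 members in the NC libraries and 19.1% to 23.0% in the knockdown libraries. TRIM8, a regulator of p53 and cytokine signalling, came next, followed by TRIM27, TRIM25, TRIM44 and TRIM11. The NC and knockdown means were 76.4 ± 2.34 and 87.5 ± 15.4 FPKM for TRIM8, 37.2 ± 1.33 and 37.5 ± 0.326 FPKM for TRIM27, and 24.0 ± 0.0700 and 23.5 ± 0.609 FPKM for TRIM44 (SD, n = 3 each). Neither TRIM8, TRIM27, TRIM44 nor TRIM11 passed the test described below, and their 95% intervals for the log2 change ran from -0.10 to 0.46, from -0.11 to 0.14, from -0.15 to 0.09 and from -0.23 to 0.11. TRIM27 and TRIM25 lay within 1 FPKM of each other in NC, and their NC values overlapped. In these libraries 11 members had a mean of at least 10 FPKM and 26 a mean from 1 to 10 FPKM.

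**Figure D1:**
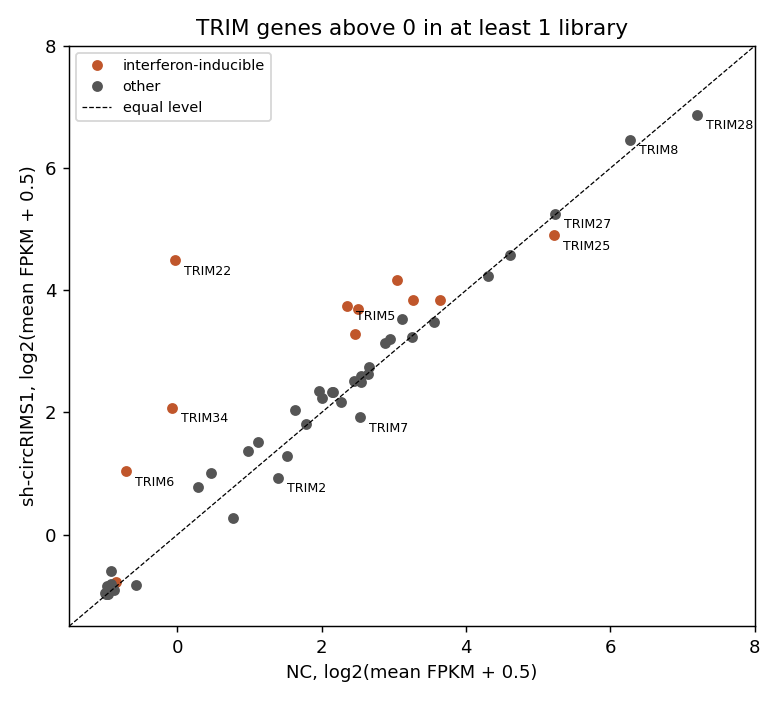
Each point is 1 of the 50 TRIM genes above 0 in at least 1 library, with the NC mean on the x axis and the sh-circRIMS1 mean on the y axis, both as log2(mean FPKM + 0.5) over 3 libraries. TRIM28 and TRIM8 sit at the top near the line of equal level, while TRIM22, TRIM34 and TRIM6 of the interferon-inducible list stand far above it.

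Before the comparisons, 1 library needs naming: sh-circRIMS1 replicate 2 stood apart. Across the 10408 tested genes, which are not independent replicates, its log2 values correlated with those of the other knockdown libraries at r = 0.974 and 0.975, while replicates 1 and 3 correlated at 0.997. Results are therefore also given without it. Summed FPKM ran from 268143 to 284682 over the 6 libraries, and sequencing depth is unknown. The 5 epithelial markers summed to between 1237 and 1282 FPKM in NC and between 701 and 953 FPKM in sh-circRIMS1. Nearly all of that sum was KRT7, KRT8 and KRT18. KRT19 and EPCAM went the other way, from means of 0 and 0.366 FPKM in NC to 0.0588 and 0.732 FPKM in sh-circRIMS1. By contrast, 3 of 6 urothelial markers (UPK1B, UPK3A and KRT20) were listed at 0, and the summed level of all 6 was at most 0.751 FPKM in any library. Among 8 leukocyte markers CD3E and MS4A1 were listed at 0, PTPRC averaged 0.0225 FPKM in the knockdown libraries, and the list summed to between 4.97 and 6.08 FPKM in NC and between 17.0 and 23.7 FPKM in sh-circRIMS1. CD68, a lysosomal protein not confined to leukocytes, made up most of that sum, at 4.57 ± 0.426 FPKM in NC and 18.2 ± 4.13 FPKM in sh-circRIMS1 (SD, n = 3 each). The 4 endothelial markers summed to between 15.3 and 16.6 FPKM in NC and between 15.4 and 20.6 FPKM in sh-circRIMS1. CDH5 made up most of that sum, with means of 15.4 FPKM in NC and 13.7 FPKM in sh-circRIMS1 and overlapping groups. TIE1 went the other way, with means of 0.133 and 2.70 FPKM. It passed the filter only through the knockdown libraries, so its test does not support a difference. PECAM1 and VWF stayed below 1 FPKM in every library. The 4 fibroblast markers, with DCN listed at 0, summed to between 0.164 and 0.228 FPKM in NC and between 0.723 and 0.964 FPKM in sh-circRIMS1, most of it COL1A1. The part of these marker differences in the results was not tested.

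Most tested members of the interferon-inducible list rose in the knockdown cells, and most other members did not pass the test. TRIM22, TRIM34, TRIM5, TRIM14, TRIM21, TRIM38 and TRIM56 were higher, from 1.53-fold for TRIM56 to 46.4-fold for TRIM22 in the ratio of mean FPKM. Outside the list the 2 members that fell, TRIM7 and TRIM2, went to 62.2% and 65.9% of their NC means, and 5 others rose by up to 1.72-fold. The test was limma on log2(FPKM + 0.5), two-sided, with Benjamini-Hochberg adjustment over all 10408 genes and a threshold of 0.05. A positive change means a higher level in sh-circRIMS1, and this log2 scale understates the change of low genes. Nothing in the labels ties replicates to separate cultures, so the p-values reflect the spread of these samples alone, possibly technical. In bulk RNA fewer expressing cells and less RNA per cell cannot be told apart.

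Of the 37 tested members 12 were higher and 2 lower, where 25.0% of all tested genes were higher and 12.7% lower. Of the 9 tested interferon-inducible members 7 were higher and 0 lower by limma, with 1 lower at an unadjusted p under 0.05. Of the 28 other tested members 5 were higher and 2 lower. The median log2 change was 1.10 for the interferon-inducible members, 0.04 for the others and 0.06 for all tested genes. Leaving aside TRIM22 and TRIM34, whose NC means lay below the filter, 5 of 7 interferon-inducible members were higher. Groups did not overlap for 22 of the 37 tested members, against 57.5% of all tested genes. Without sh-circRIMS1 replicate 2, over the same genes, 17 members were higher and 4 lower, where 37.0% of all genes were higher and 23.8% lower. The count of 12 went to 7 when any of NC replicates 1, 2 or 3 or sh-circRIMS1 replicate 3 was left out. In the same order, the share higher over all tested genes went from 25.0% to 15.6%, 15.8%, 15.6% and 20.0%.

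The balance of calls depended on the scaling between libraries, while the 7 rises of interferon-inducible members and the 2 falls did not. With median-of-ratios scaling the median change of all genes moved by -0.12 on the log2 scale and the share of higher among called genes from 66.3% to 42.4%. The members then stood at 9 higher and 7 lower, where 17.2% of all tested genes were higher and 23.4% lower. Under quantile normalization they stood at 7 higher and 7 lower, beside 15.3% and 20.2% of all tested genes. The median of the interferon-inducible members was 0.97 and 1.01 under these scalings, against -0.07 and -0.06 for the others and -0.06 and -0.05 for all genes.

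**Figure D2:**
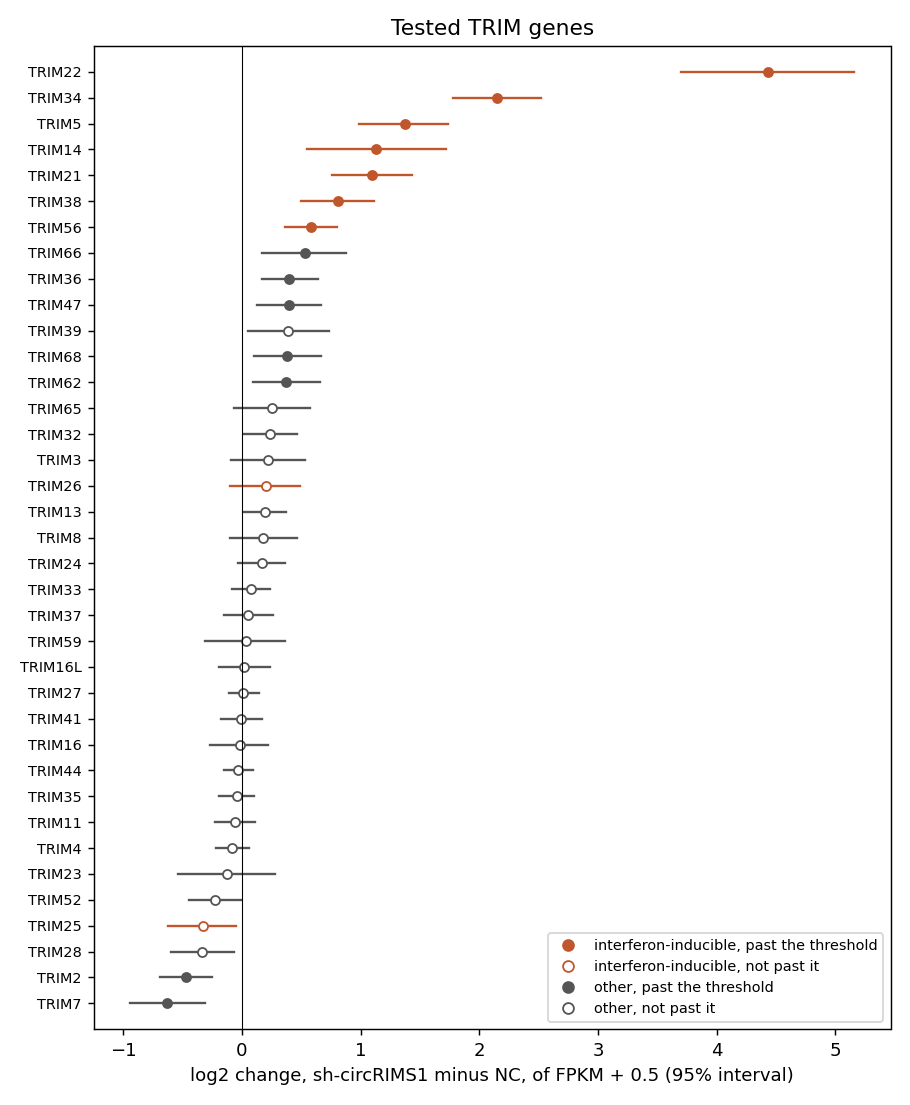
Points give the log2 change (sh-circRIMS1 minus NC, of FPKM + 0.5) of the 37 tested TRIM genes with 95% intervals from limma, filled where the adjusted p passed 0.05 and coloured by list. The 7 filled interferon-inducible genes lie above all others, from 0.58 for TRIM56 to 4.43 for TRIM22, and the open ones of that list are TRIM26 and TRIM25.

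The largest changes were on chromosome 11, where TRIM5, TRIM6, TRIM34 and TRIM22 lie close together. TRIM22, a ligase that restricts HIV transcription and other viruses, had 0.483, 0.465 and 0.473 FPKM under NC, and 26.9, 11.7 and 27.3 FPKM after the knockdown. The NC values were nearly equal, and the groups were far apart, with replicate 2 at 0.431 times the mean of replicates 1 and 3. The log2 change was 4.43 ± 0.31 (standard error, limma adjusted p = 0.000202). TRIM22 passed the filter only through the knockdown libraries, so this test does not support a difference. With no filter the log2 change was 4.43 (limma adjusted p = 0.001).

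TRIM34, a close relative of TRIM5 known to act with it against certain retroviral capsids, measured 0.513, 0.319 and 0.505 FPKM in NC and 3.66, 3.01 and 4.46 FPKM in sh-circRIMS1. All knockdown libraries lay above all NC libraries, and the log2 change was 2.15 ± 0.15 (standard error, limma adjusted p = 0.000234). TRIM34 too passed the filter only through the knockdown libraries, so this test does not support a difference. With no filter its limma adjusted p was 0.001. TRIM5 encodes the capsid-binding restriction factor TRIM5-alpha and had 4.64, 4.57 and 4.56 FPKM in NC and 13.7, 9.62 and 15.3 FPKM in sh-circRIMS1. Its log2 change was 1.37 ± 0.16 (standard error; limma adjusted p = 0.00114), and the groups did not overlap. TRIM5 started from a level about that of TRIM14 and TRIM38 in NC, whereas TRIM22 and TRIM34 started below 1 FPKM.

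TRIM6, which builds free ubiquitin chains that activate the kinase IKBKE, lay below the filter with a mean of 0.829 FPKM. Its values were 0.0921, 0.0826 and 0.155 FPKM in NC and 1.29, 1.96 and 1.39 FPKM in sh-circRIMS1, and unlike the tested members of the list it was highest in replicate 2. The ratio of means was 14.1 and an exact two-sided permutation test gave p = 0.1, its floor for groups of 3. With no filter the log2 change was 1.74 (limma adjusted p = 0.00106). The table also has a row for the TRIM6-TRIM34 readthrough transcript, at 0.0403 ± 0.0407 FPKM in NC and 0.690 ± 0.293 FPKM in sh-circRIMS1 (SD, n = 3 each). In RefSeq on GRCh38.p14 the span of TRIM5 overlaps TRIM6, the readthrough gene and TRIM34, and the windows above place TRIM5 on the other strand from TRIM34. The sources used here do not give whether reads were counted by strand or how reads of overlapping genes were split, so the levels of TRIM5, TRIM6 and TRIM34 are uncertain to that extent.

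Chromosome 11 holds 19 of the 72 members. Of its 8 tested members 6 were higher and 0 lower by limma, with 0 lower at an unadjusted p under 0.05, where 25.0% of all tested genes were higher and 12.7% lower. A further 9 of the 19 were listed at 0. The 6 were TRIM5, TRIM21, TRIM22, TRIM34, TRIM66 and TRIM68, and the others tested there were TRIM3 and TRIM44. TRIM22, TRIM34 and TRIM66 are the 3 members that passed the filter only through the knockdown libraries, so the count does not support a difference.

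**Figure D3:**
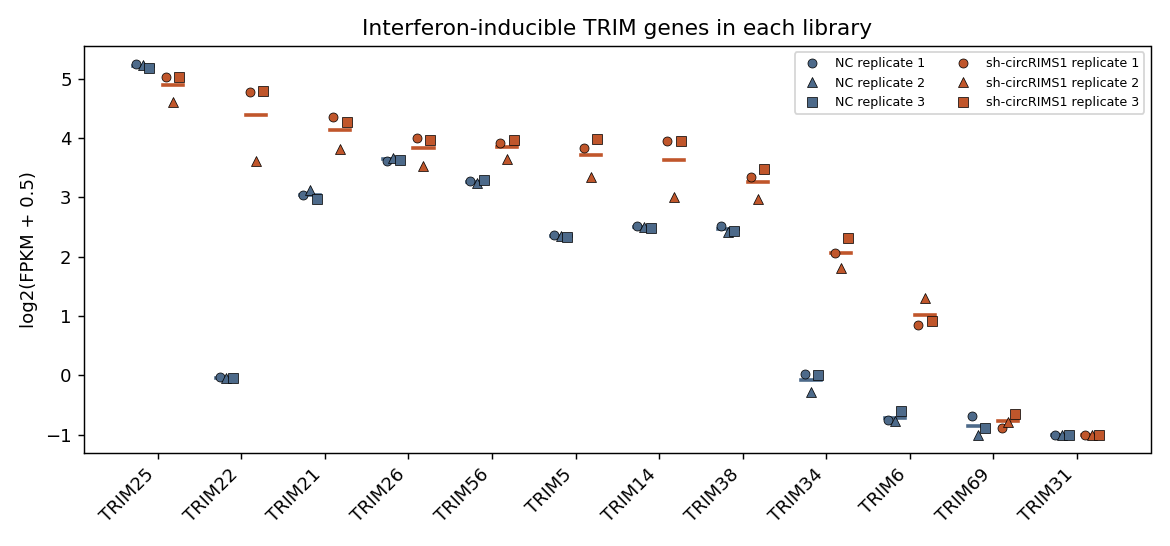
Each marker is 1 library, as log2(FPKM + 0.5), for the 12 interferon-inducible TRIM genes ordered by their knockdown mean, with a bar at the mean of the 3 log2 values of a group and marker shapes for replicates 1 to 3. TRIM22 shows the widest gap between groups, the knockdown triangle (replicate 2) lies below the other knockdown markers from TRIM25 to TRIM34, and TRIM25 lies lower in the knockdown libraries than in NC.

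Rises elsewhere in the list were smaller. TRIM21, a cytosolic receptor for antibodies, rose from 7.71, 8.21 and 7.37 FPKM in NC to 19.9, 13.5 and 18.7 FPKM in sh-circRIMS1, a difference of 1.10 ± 0.14 on the log2 scale (standard error; limma adjusted p = 0.00177). TRIM14, which lacks a RING domain and serves as an adaptor of MAVS at mitochondria, stood at 5.23, 5.14 and 5.11 FPKM in NC and at 15.0, 7.54 and 14.9 FPKM in sh-circRIMS1. Its groups did not overlap, but replicate 2 reached 0.506 times the mean of the other knockdown libraries, and the standard error of its log2 change of 1.13 was 0.25 (limma adjusted p = 0.0123).

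TRIM38, which restrains inflammatory signalling through TAB2 and TAB3, measured 5.25, 4.83 and 4.92 FPKM in NC and 9.62, 7.38 and 10.6 FPKM in sh-circRIMS1. TRIM56, reported to aid the signalling of STING and TLR3, measured 9.18, 8.94 and 9.24 FPKM in NC and 14.6, 12 and 15.2 FPKM in sh-circRIMS1. In both genes every knockdown library lay above every NC library. The log2 changes were 0.81 ± 0.13 and 0.58 ± 0.09 (standard errors; limma adjusted p = 0.00374 and 0.00400).

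Not every listed member rose. TRIM25, the ligase known to ubiquitinate RIG-I, had the highest NC level of the list, with 37.3, 37.1 and 35.8 FPKM in NC and 32.0, 23.8 and 32.3 FPKM in sh-circRIMS1. All knockdown values lay below all NC values, with replicate 2 lowest, and the log2 change of -0.33 with a 95% interval from -0.62 to -0.05 did not pass (limma adjusted p = 0.0677). It passed in the same direction without sh-circRIMS1 replicate 2, at -0.19 (limma adjusted p = 0.00119), and under median-of-ratios scaling and quantile normalization.

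TRIM26, a ligase reported to act on IRF3, measured 11.8, 12.2 and 11.9 FPKM in NC and 15.5, 11.1 and 15.1 FPKM in sh-circRIMS1. Replicates 1 and 3 lay above NC and replicate 2 below it, so the groups overlapped (log2 change 0.20, limma adjusted p = 0.250). Without replicate 2 the change was 0.34 and passed (limma adjusted p = 0.000113). TRIM69, a microtubule-binding member, stayed at or below 0.134 FPKM in every library, with NC replicate 2 listed at 0 and an overlap between the groups.

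Summed over the list, TRIM25 weighed most in NC. The 12 members summed to between 80.0 and 82.3 FPKM in the NC libraries and to 152, 102 and 155 FPKM in sh-circRIMS1 replicates 1, 2 and 3. TRIM25 made up 44.7% to 45.3% of that sum in NC and 20.8% to 23.4% in sh-circRIMS1. Of the summed FPKM of all 72 members the list held 16.2% to 16.7% in NC and 20.2% to 27.8% in sh-circRIMS1.

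Replicate 2 was the lowest knockdown library for the tested list as a whole. All 9 tested interferon-inducible members lay lower in it than in the mean of replicates 1 and 3, against 15 of the 28 other tested members and 48.8% of all tested genes. The median of the 9 lay 1.31, 0.52 and 1.21 above the NC mean on the log2 scale in replicates 1, 2 and 3, while that of the 28 lay 0.04, 0.07 and 0.06 above it. With replicate 2 left out, 8 of the 9 were higher and 1, TRIM25, was lower, where 37.0% of all tested genes were higher and 23.8% lower.

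**Figure D4:**
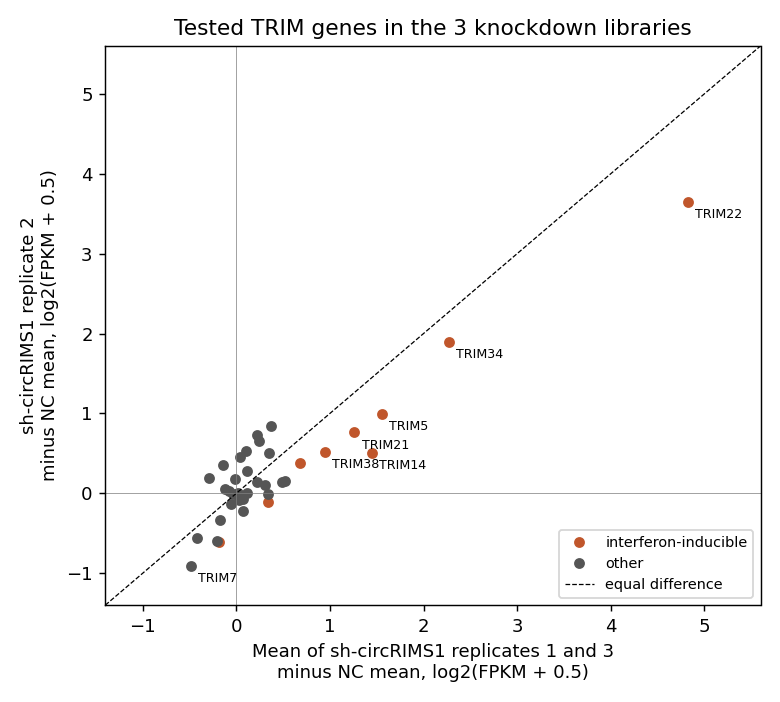
Each point is 1 of the 37 tested TRIM genes, with its difference from the NC mean in log2(FPKM + 0.5) averaged over sh-circRIMS1 replicates 1 and 3 on the x axis and in replicate 2 on the y axis. All 9 interferon-inducible genes lie below the line of equal difference, with TRIM22 at the far right, and the other genes scatter on both sides of it near 0.

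Among members outside the list, 2 fell. TRIM7, a ligase that binds glycogenin and C-terminal glutamine motifs, had 5.30, 5.05 and 5.46 FPKM in NC and 3.38, 2.58 and 3.88 FPKM in sh-circRIMS1. TRIM2, a ligase of neurofilament light chain with an NHL domain, had 2.04, 2.23 and 2.15 FPKM in NC and 1.36, 1.29 and 1.58 FPKM in sh-circRIMS1. For both, every knockdown library lay below every NC library. The log2 changes were -0.63 ± 0.13 for TRIM7 and -0.47 ± 0.09 for TRIM2 (standard errors; limma adjusted p = 0.0108 and 0.00869).

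The 5 rises outside the list were small, and each call was lost without NC replicate 1, 2 or 3 and without sh-circRIMS1 replicate 3. TRIM66, a PHD-bromodomain relative of TRIM28, went from 0.881, 0.898 and 0.855 FPKM in NC to 1.21, 1.97 and 1.36 FPKM in sh-circRIMS1 (log2 change 0.53, limma adjusted p = 0.0313). It passed the filter only through the knockdown libraries, so its test does not support a difference. With no filter its limma adjusted p was 0.0449. TRIM36, a microtubule-associated ligase, went from 1.67 ± 0.160 to 2.37 ± 0.225 FPKM (SD, n = 3 each; log2 change 0.40, limma adjusted p = 0.0199). TRIM47 went from 8.18 ± 0.621 to 11 ± 1.57 FPKM (SD, n = 3 each; log2 change 0.40, limma adjusted p = 0.0332). TRIM68, a coactivator of the androgen receptor, and TRIM62, known for acting on CARD9, changed by 0.38 and 0.37 (limma adjusted p = 0.0449 and 0.0462). The groups did not overlap for any of the 5. Replicate 2 was the highest knockdown library for TRIM36, TRIM66 and TRIM68 and the lowest for TRIM47 and TRIM62.

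**Figure D5:**
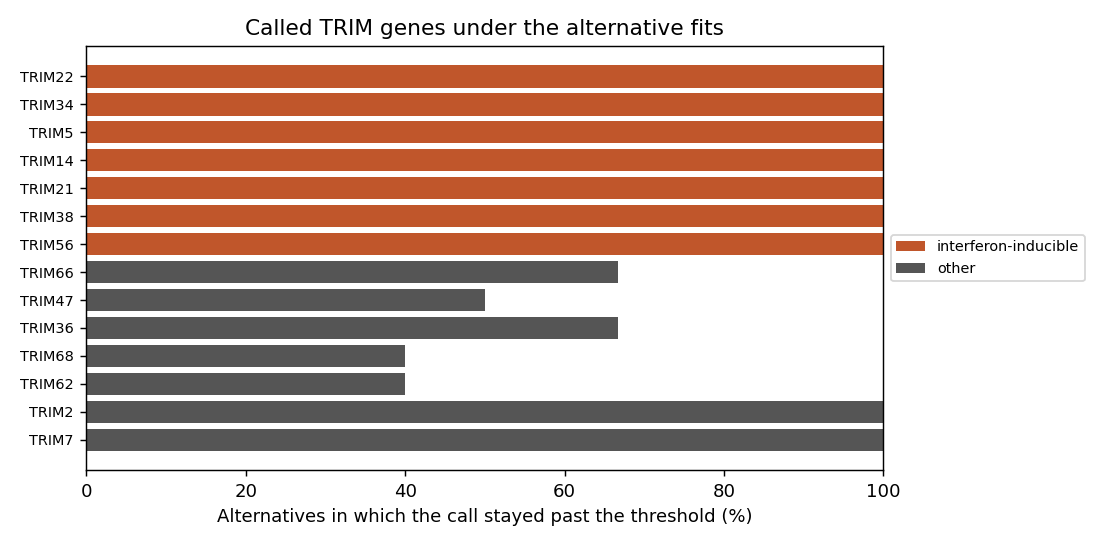
Bars give, for the 14 TRIM genes past the threshold, the percentage of alternative fits in which the gene was tested and stayed past it in the same direction. The 7 interferon-inducible genes and the falls of TRIM7 and TRIM2 reach the end of the axis, and the 5 other rises do not.

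TRIM28 had 146, 149 and 143 FPKM in NC and 127, 96.3 and 126 FPKM in sh-circRIMS1. All knockdown libraries lay below NC, replicate 2 the furthest, and the log2 change of -0.34 with a 95% interval from -0.60 to -0.07 did not pass (limma adjusted p = 0.0513). Without replicate 2 it was -0.20 and passed (limma adjusted p = 0.000171). It also passed in the same direction under median-of-ratios scaling, quantile normalization, equal column sums and array weights, and without sh-circRIMS1 replicate 1. In 9 of 16 alternative fits it did not pass. Of the 13 listed partners of TRIM28 in silencing, 2 were higher (15.4%) and 1 lower (7.69%), both shares below the 25.0% and 12.7% of all tested genes, so the list as a whole did not stand out. The histone methyltransferase SETDB1 rose from 4.71 ± 0.376 to 5.94 ± 0.314 FPKM and the heterochromatin protein gene CBX5 from 11.8 ± 0.707 to 14.0 ± 0.788 FPKM (SD, n = 3 each), by 0.31 and 0.23 on the log2 scale (limma adjusted p = 0.0221 and 0.0413). The deacetylase HDAC1 measured 92.4, 91.7 and 96.2 FPKM in NC and 69.7, 46.6 and 70.1 FPKM in sh-circRIMS1, again lowest in replicate 2 (log2 change -0.61, limma adjusted p = 0.0226).

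By C-terminal domain, SPRY proteins, whose domain binds capsids, antibodies and other targets, made up 21 of the 37 tested members and 9 of the 12 that rose. Of the 21, 42.9% were higher and 4.76% (1 member) lower, against 25.0% and 12.7% of all tested genes. TRIM22 and TRIM34, among the 9, passed the filter only through the knockdown libraries, so the share does not support a difference. The class holds most of the interferon-inducible list, and 6 of the 7 interferon-inducible rises were of this class, TRIM56 being the exception. Of 4 tested PHD-bromodomain members (TRIM24, TRIM28, TRIM33 and TRIM66) 1 was higher and 0 lower by limma, with 1 lower at an unadjusted p under 0.05. The 1 higher was TRIM66, which also passed the filter only through the knockdown libraries. The 3 tested NHL members were TRIM2, which fell, and TRIM3 and TRIM32, whose log2 changes were 0.22 and 0.24 (limma adjusted p = 0.217 and 0.0848). Without sh-circRIMS1 replicate 2 the changes of TRIM3 and TRIM32 were 0.34 and 0.31 and passed (limma adjusted p = 0.0105 and 0.00475). In that fit 37.0% of all tested genes were higher. Only 1 of 8 COS members, a class that binds microtubules, was tested. The authors' table gives the term innate immune response to 17 members, of which 13 were tested and 3 were higher, a share of 23.1% that lies near the 25.0% of all tested genes. TRIM22, TRIM5 and TRIM34 do not carry that term there, so it does not mark the interferon-inducible members.

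Members below the filter were described by their levels. TRIM45 measured 0.715 ± 0.0627 FPKM in NC and 1.22 ± 0.229 FPKM in sh-circRIMS1, just under the filter with a mean of 0.968 FPKM, as TRIM66 lay just above it with 1.20 FPKM. TRIM9, a neuronal ligase of the COS class, measured 0.0284 ± 0.00455 FPKM in NC and 0.164 ± 0.0311 FPKM in sh-circRIMS1 (SD, n = 3 each), without overlap. TRIM73 and TRIM74 are near-identical copies, as are TRIM16 and TRIM16L over part of their length, so their values depend on how shared reads were counted. TRIM74 measured 1.54, 1.10 and 0.963 FPKM in NC and 0.599, 0.518 and 1.02 FPKM in sh-circRIMS1, with overlapping groups and an exact two-sided permutation p of 0.2.

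Genes that work with TRIM proteins were read from lists set beside the family. PML, a TRIM protein without a TRIM symbol and the scaffold of nuclear bodies, rose from 5.93, 5.38 and 5.35 FPKM in NC to 15.7, 11.1 and 16.0 FPKM in sh-circRIMS1 (log2 change 1.27, limma adjusted p = 0.00102). Its relatives MID1 and MID2 were tested and did not pass, and MEFV lay below the filter. Of 16 genes of RNA and DNA sensing on which TRIM proteins act, 8 were higher and 0 lower by limma, with 1 lower at an unadjusted p under 0.05, beside 25.0% higher and 12.7% lower over all tested genes. The RNA sensor DDX58, which encodes RIG-I, measured 11.4, 11.8 and 11.2 FPKM in NC and 72.9, 35.8 and 80.5 FPKM in sh-circRIMS1, with replicate 2 lowest, as for TRIM22.

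The RNA sensor IFIH1 rose from 2.78 ± 0.127 to 40.6 ± 13.5 FPKM, the transcription factor IRF7 from 11 ± 0.826 to 74.6 ± 19.5 FPKM, and TMEM173, which encodes STING, from 17.7 ± 0.0233 to 28.1 ± 0.392 FPKM (SD, n = 3 each). The other RIG-I ligase of the list, RNF135, rose by 0.40 on the log2 scale (limma adjusted p = 0.0359) while TRIM25 did not. The adaptor MAVS measured 27.0 ± 0.519 and 24.0 ± 1.80 FPKM (SD, n = 3 each) and did not pass (limma adjusted p = 0.0966). Its groups did not overlap. Without sh-circRIMS1 replicate 2 its log2 change was -0.10 and passed (limma adjusted p = 0.0298). In that fit 8 of the 16 sensing genes were higher and 2 lower by limma, beside 37.0% and 23.8% of all tested genes.

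Of 8 genes that carry the interferon signal 7 were higher and 0 lower by limma, with 0 lower at an unadjusted p under 0.05, beside the same 25.0% and 12.7%. IRF9, a subunit of the factor that binds the response element, did not show the low replicate 2 seen for TRIM22 and TRIM14, with 9.98, 9.58 and 11 FPKM in NC and 37.4, 37.6 and 35.8 FPKM in sh-circRIMS1. IRF1 rose from 7.16 ± 0.258 to 19.9 ± 1.20 FPKM and STAT2 from 6.27 ± 0.287 to 17.9 ± 5.58 FPKM (SD, n = 3 each). Of the ubiquitin-conjugating enzymes that supply TRIM ligases 9 of 10 were tested, and 2 were higher and 0 lower by limma, with 1 lower at an unadjusted p under 0.05. The 22.2% higher is no more than the 25.0% of all tested genes. The 2 were UBE2E1 and UBE2D1, at log2 changes of 0.32 and 0.26 (limma adjusted p = 0.0208 and 0.0298).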

How the data were processed

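RNA of 6 T24 libraries was measured, 3 per group. The authors deposited 1 table of FPKM values per gene symbol; no counts were used, so depth and counting intervals are unknown. Per the labels' protocols, libraries were directional and made after rRNA removal and an RNase R step against linear RNA; mRNAs are nevertheless abundant in the table, so whether that step applied here is unclear. Per the submitters' processing notes the tools were HISAT2, StringTie, Cufflinks, Trimmomatic, HTSeq and DESeq; the sources used here give no version, role or genome build.

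Genes with a mean of at least 1 FPKM were tested on log2(FPKM + 0.5) by limma 3.58.1 (R 4.3.3), with group as the only term, an intensity trend and adjustment over all 10408 genes, after the code was tested on simulated data. Members below the filter with a mean of at least 0.1 FPKM had an exact permutation test. All 72 members matched RefSeq by GeneID; the listed CGAS was matched from its older symbol. Named genes were all interferon-inducible members, the largest called changes among the others, the 6 highest members and up to 4 called genes per partner list; TRIM3, TRIM9, TRIM24, TRIM32, TRIM33, TRIM45, TRIM74, MAVS and RNF135 were chosen after their values were seen. The members and lists were chosen with earlier results of these data known. Alternatives changed the pseudocount (0.1, 1), filter (none, 5 FPKM), scaling, library weights, replicate block, list and each library. Some listed genes are not reported here.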

Additional observations from a re-analysis of the deposited data

How the results depend on the processing

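The 7 rises among interferon-inducible members and the falls of TRIM7 and TRIM2 kept direction and threshold in every alternative fit in which they were tested, 16 fits or, for TRIM34, TRIM7 and TRIM2, 15; the log2 change of TRIM22 ran from 3.87 to 5.16 and its limma adjusted p from 2.77e-11 to 0.00276, and the adjusted p of TRIM14 reached 0.0493. None of the 5 other rises did so. TRIM22 and TRIM34 had NC means below 1 FPKM, so their kept calls in fits with a filter do not support a difference. With no filter the limma adjusted p of each was 0.001. TRIM5, TRIM14, TRIM21, TRIM38 and TRIM56 had NC means of at least 1 FPKM. All members, 12 higher and 2 lower, became 7 and 0 at a mean of at least 5 FPKM. TRIM34, TRIM36, TRIM62, TRIM66, TRIM68, TRIM7 and TRIM2 were not tested at that filter, and every called member tested there kept its call. All members became 7 and 7 under quantile normalization, 9 and 7 under median-of-ratios scaling and 17 and 5 with array weights. Interferon-inducible members lower, 0 at first, were 1 under quantile normalization, median-of-ratios scaling and array weights, each time TRIM25. The other members, 5 higher and 2 lower, became 1 and 0 at 5 FPKM, 2 and 6 with median-of-ratios scaling, 0 and 6 with quantile normalization (by limma) and 9 and 4 with array weights. Leaving out 1 library gave 7 to 17 members higher and 2 to 4 lower. Of these, interferon-inducible members made up 7 to 8 and 0 to 1, and others 0 to 9 and 2 to 3. Over all tested genes these fits gave 15.6% to 36.8% higher and 6.55% to 23.9% lower. The count of 4 members lower came without sh-circRIMS1 replicate 2. The cause was not tested. The narrow and broad lists had 6 and 8 members higher. Without a filter 13 members were higher, TRIM6, TRIM9, TRIM17 and TRIM45 among them, where 20.8% of all tested genes were higher. Of the 23 members not called, 12 passed under at least 1 alternative and 10 turned direction under at least 1.

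The labels do not say whether replicate numbers pair the samples. Deviations from the group means of same-numbered libraries correlated at -0.03, -0.00 and -0.04. With 3 libraries per group these values cannot show whether the samples were paired. With the replicate block 10 members were higher and 2 lower, 3 of the other members being higher; TRIM62 and TRIM68 then had adjusted p = 0.0747 and 0.0572 by limma. Without counts the depth behind low members such as TRIM69 is unknown.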
